A study of Mus musculus with 16 samples.

Results

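The 6 antibodies against EGFR and MET on a reverse-phase protein array of mouse liver were described in 16 samples. They were taken by name from the 158 antibodies of the array, and they comprise 4 rows for EGFR (the total protein and the phosphotyrosine sites Y845, Y1045 and Y1068) and 2 for MET (the total protein and the phosphotyrosine site Y1349). Site numbers are those in the antibody names. In the 5 comparisons that the groups give, 0% to 19% of all 158 antibodies passed the test, and none of the 6 did. Total EGFR had the smallest p among them in both comparisons of tumor with control liver and lay below every control liver of its arm in 9 of 10 tumors after scaling, with log2 differences of -0.49 in Ha-ras-mutated tumors and -0.38 in Ctnnb1-mutated tumors, on a signal close to that of the secondary antibody alone. Divided by the signal of the secondary antibody alone, without centring, EGFR was 0.10 higher in Ctnnb1 tumors. The median over all antibodies so divided was 0.23 higher. In fluorescence before scaling 3 of the 7 Ctnnb1 tumors lay below all their controls.

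EGFR is the receptor tyrosine kinase of epidermal growth factor and its relatives, and MET is the receptor tyrosine kinase of hepatocyte growth factor. Both are made by hepatocytes and carry signals for growth and regeneration of the liver. Binding of ligand brings receptor molecules together, and tyrosines in their cytoplasmic parts become phosphorylated and recruit adapters that lead to Ras with the Raf, MEK and ERK kinases, to PI3K with Akt, and to STAT proteins. Y1068 of EGFR is an autophosphorylation site that recruits the adapter GRB2, Y845 is a site in the kinase domain phosphorylated by SRC, and Y1045 is the docking site of the ubiquitin ligase CBL. Y1349 of MET belongs to the docking site for several adapters, GAB1 and GRB2 among them.

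All samples were liver tissue of male C3H/HeJ mice. The series' design text describes mice injected with the carcinogen diethylnitrosamine (10 or 90 µg per g at 2 or 6 weeks of age), and whether the control livers came from injected mice is not said in the labels. From mice given phenobarbital (PB) came 7 tumors with a mutated Ctnnb1 and 3 control livers, the PB controls. Mice without PB gave 3 tumors with a mutated Ha-ras and 3 control livers, the no-PB controls. Samples are numbered as in their titles. PB is an inducer of drug-metabolising enzymes that promotes liver tumors in mice. Each tumor genotype came from 1 arm, so genotype and PB cannot be told apart in a direct comparison of the tumors. The labels disagree on the PB treatment (0.05% in the diet for 28 to 36 weeks, 27 weeks, or 28 days in drinking water), do not tie doses or ages to samples, and do not say whether each sample is from its own animal. The p-values treat samples as independent and may therefore reflect spread within animals or technical spread, not spread between animals. In bulk tissue, fewer cells that make a protein and less of it per cell cannot be told apart.

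The array reads each antibody as relative fluorescence, in arbitrary units, of a labelled secondary antibody on spotted lysate, and 19 blank rows hold the secondary antibody alone. The number of samples limits the precision, and only 3 samples stand in 3 of the groups. The hepatocyte transcription factor HNF4A read 9.26 to 21.9 times its blank in every sample. The array holds 11 antibodies to the hepatocyte markers searched for, and none to the bile duct, stellate, endothelial or immune markers searched for, so the share of other cells was not measured. The median signal over antibodies was 0.466 to 0.791 per sample.

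How far each receptor antibody stood above its blank differed widely among the 6. Total MET read 3.19 to 17.9 times its blank and MET_P-Y1349 2.2 to 4.23 times, so both were at 2 times the blank or more in all 16 samples. Below that limit, called dim here, were 3 of 16 samples for EGFR_P-Y845, 10 of 16 for total EGFR, 14 of 16 for EGFR_P-Y1068 and 16 of 16 for EGFR_P-Y1045. Ranked from the dimmest by the median ratio to the blank, EGFR_P-Y1045 was number 4 of 145 antibodies with a known blank, EGFR_P-Y1068 number 6, total EGFR number 19, MET_P-Y1349 number 42, EGFR_P-Y845 number 55 and total MET number 79.

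**Figure D1:**
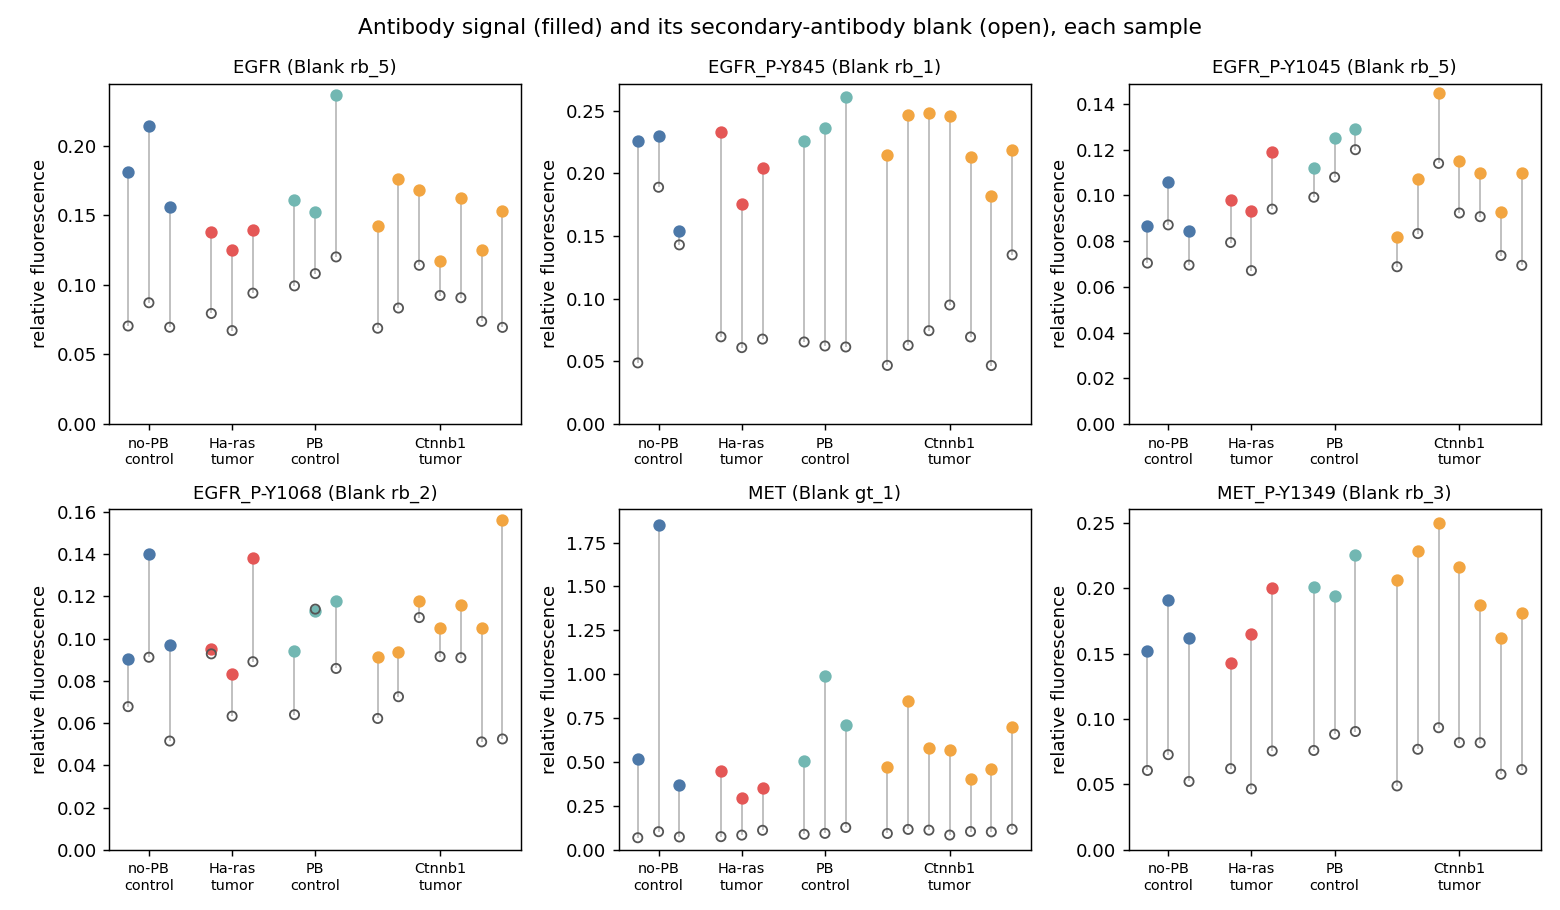
Relative fluorescence (arbitrary units, linear axis from 0) of the 6 antibodies in each of the 16 samples, in the order of the replicate numbers within each group (filled points), and of the matched blank in the same sample (open points, joined by a line). Total MET stands well above its blank, at 3.19 to 17.9 times, while EGFR_P-Y1045 follows its blank closely at 1.07 to 1.58 times.

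Total EGFR was lower in Ha-ras tumors than in no-PB controls, just short of the threshold. Its fluorescence was 0.138, 0.125 and 0.139 in Ha-ras tumors 1 to 3 and 0.181, 0.214 and 0.156 in no-PB controls 1 to 3. The 3 tumors lay below the 3 controls without overlap, both in fluorescence and after each sample was centred on its median. In that comparison 26.6% of all 158 antibodies separated the groups, and EGFR was the only one of the 6 receptor antibodies to do so. The log2 difference was -0.49 ± 0.16 (SE, n = 3 and 3), 1.4-fold lower, with a limma adjusted p of 0.0529 over the 158 antibodies. By p it ranked number 23, and 22 antibodies (13.9%) passed.

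All 3 Ha-ras tumors were dim for total EGFR, at 1.48 to 1.86 times the blank, and no no-PB control was, at 2.24 to 2.57 times. With the tumors set at their limit, EGFR was at least 1.18-fold lower. This bound rests on the matched blank, since against the median of all blanks 15 of 16 samples were dim for EGFR. The blank itself differed by 0.04 between these groups on the log2 scale. Divided by the blank in the same sample, EGFR was 0.52 lower on the log2 scale (adjusted p = 0.255). EGFR passed in 6 of 25 alternative settings, and over the 25 the adjusted p ranged from 0.0221 with quantile normalization to 0.452 with scaling to the Alexa647 reference rows.

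In the PB arm the fluorescence of total EGFR was 0.142, 0.176, 0.168, 0.117, 0.162, 0.125 and 0.153 in Ctnnb1 tumors 1 to 7. The PB controls 4 to 6 read 0.161, 0.152 and 0.236. In fluorescence 3 of the 7 tumors lay below all 3 controls. After centring 6 did, and only tumor 5 overlapped the controls. The log2 difference was -0.38 ± 0.13 (n = 7 and 3, limma adjusted p = 0.25, unadjusted p = 0.0124). In this comparison 0% of the 158 antibodies passed, while 25 (15.8%) had an unadjusted p under 0.05, and EGFR ranked number 7.

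The EGFR blank moved with the tumors here. On the same centred scale it was 0.48 lower in Ctnnb1 tumors than in PB controls (mean log2 -2.85 ± 0.28 against -2.37 ± 0.01, SD). Divided by the blank, total EGFR turned to 0.10 higher in Ctnnb1 tumors (adjusted p = 0.752). That ratio was not centred, and the median over all antibodies so divided was 0.23 higher. All 3 PB controls and 4 of the 7 tumors were dim for EGFR, so no fold of the protein above background is given for this arm.

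The mean of the tumor effects over both arms was tested with the same fit. This sixth comparison was formed after the values of EGFR in each arm had been seen, so its p is not independent of them. The mean difference of EGFR was -0.43 ± 0.10 on the log2 scale (limma adjusted p = 0.00993; 10.8% of 158 antibodies passed, 5.06% as lower). An exact permutation of tumor and control labels within each arm, two-sided over 2400 relabellings, gave p = 8.3e-04 (smallest possible 4.2e-04). This p is unadjusted and for EGFR alone. It comes from the same centred values, which carry the blank, in a comparison formed after they had been seen, so it adds no separate support. By limma, EGFR was the only one of the 6 to pass. The call was lost in 6 of 25 alternatives, among them division by the blank (-0.21, adjusted p = 0.441), subtraction of the blank (-0.63, adjusted p = 0.167) and Alexa647 scaling (-0.24, adjusted p = 0.327). All 6 losses came from changes of scaling, blank or fit. Of such changes, only quantile normalization and array weights kept the call in a test that could have lost it. The groups fitted alone, counted among the 25, kept it too. This mean draws on every group, so that setting repeats the main fit and says nothing about how stable the call is. The other alternatives that kept it were the 16 that left out a single sample.

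**Figure D2:**
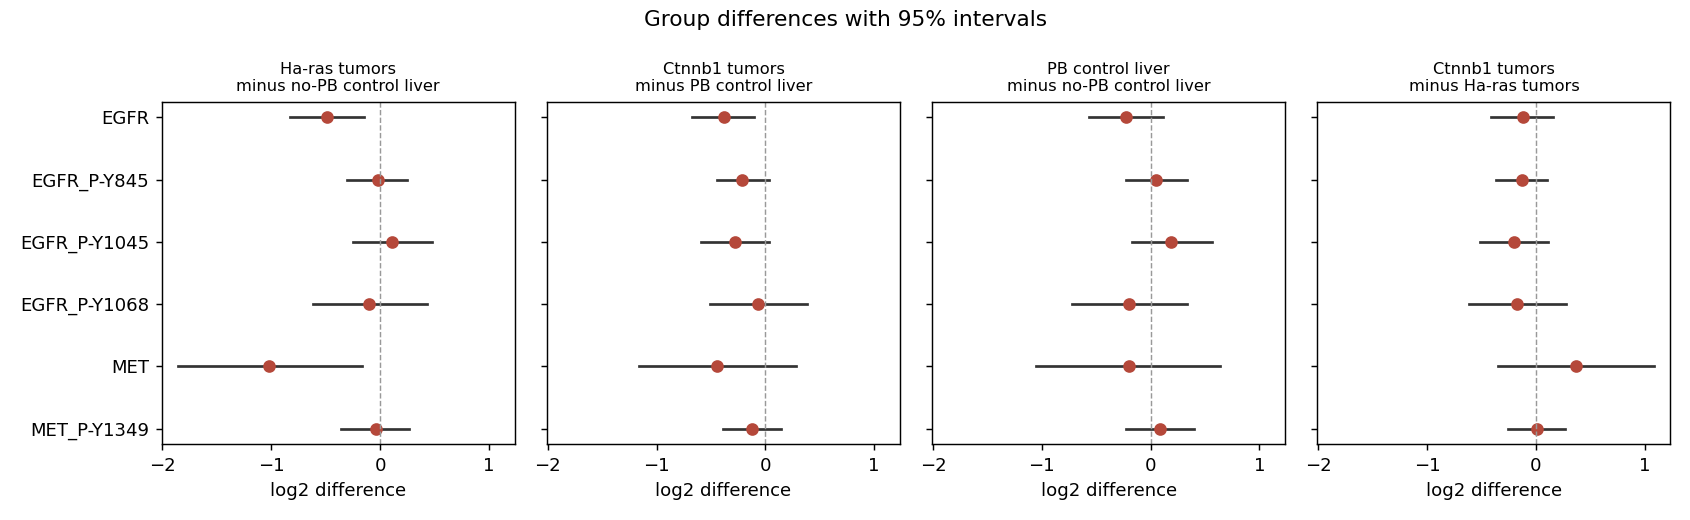
Log2 differences of the 6 antibodies between groups (horizontal axis) with 95% intervals from the limma fit, for 4 comparisons. The intervals are not adjusted for the number of antibodies. Those of total EGFR lie below 0 in both comparisons of tumor with control liver (-0.83 to -0.15 and -0.67 to -0.10). That of total MET lies below 0 in Ha-ras tumors against no-PB controls (-1.86 to -0.17), and total MET has the widest intervals. The intervals of the EGFR and MET sites cross 0 in all 4 panels.

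The order of the EGFR group means was no-PB controls (centred log2 -1.42 ± 0.11, SD), PB controls (-1.65 ± 0.26), Ha-ras tumors (-1.91 ± 0.14) and Ctnnb1 tumors (-2.03 ± 0.20). Each neighbouring pair in that order overlapped. Between the controls, PB against no-PB differed by -0.23 ± 0.16 (limma adjusted p = 0.598), and between the tumors, Ctnnb1 against Ha-ras differed by -0.12 ± 0.13 (adjusted p = 0.614). The tumor effects of the 2 arms differed by 0.11 ± 0.21 (adjusted p = 0.871), with a 95% interval of -0.33 to 0.55.

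EGFR_P-Y845, the SRC site, stood furthest above its blank of the 3 EGFR sites, at a median of 3.34 times. It read 0.233, 0.176 and 0.204 in Ha-ras tumors 1 to 3 and 0.226, 0.23 and 0.154 in no-PB controls 1 to 3. The groups overlapped, and the log2 difference was -0.02 ± 0.13 (limma adjusted p = 0.935), with a 95% interval of 0.811 to 1.19 times the control signal. In the PB arm the tumors ranged from 0.182 to 0.248 with a median of 0.219, and PB controls 4 to 6 read 0.226, 0.236 and 0.261. In fluorescence 4 of the 7 Ctnnb1 tumors lay below all 3 PB controls, and after centring all 7 did. In that comparison 8.86% of the 158 antibodies separated the groups. The Y845 difference was -0.21 ± 0.11 (limma adjusted p = 0.337), 1.15-fold lower, and divided by the blank it was -0.28 ± 0.38 (adjusted p = 0.665). The median over all antibodies was -0.14 after centring, and with Alexa647 scaling Y845 differed by 0.00 ± 0.16 (adjusted p = 0.997).

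The blank of EGFR_P-Y845 varied more between samples than the antibody did. It ranged from 0.0467 to 0.189, 4.06-fold and the second widest range of the 19 blanks, against 0.154 to 0.261 for the antibody. It was high in no-PB controls 2 (0.189) and 3 (0.143) and in Ctnnb1 tumor 7 (0.135), and at 0.0467 to 0.095 in the other 13 samples. Those 3 samples are the dim ones for Y845, at 1.22, 1.07 and 1.61 times the blank.

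In the authors' deposited table of log2 values, from which this blank had been subtracted, Y845 stood at 2.22, 1.66 and 2.42 in Ha-ras tumors 1 to 3. The same table gave 2.57, 0.00 and -1.68 in no-PB controls 1 to 3, so the controls span more than the tumors and enclose them. On that table the difference was 1.81 ± 0.71 (limma adjusted p = 0.117), and with the blank subtracted here it was 1.71 ± 0.64 (adjusted p = 0.0961). The antibody's own fluorescence differed by -0.02 and its blank by -0.78 on the log2 scale.

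**Figure D3:**
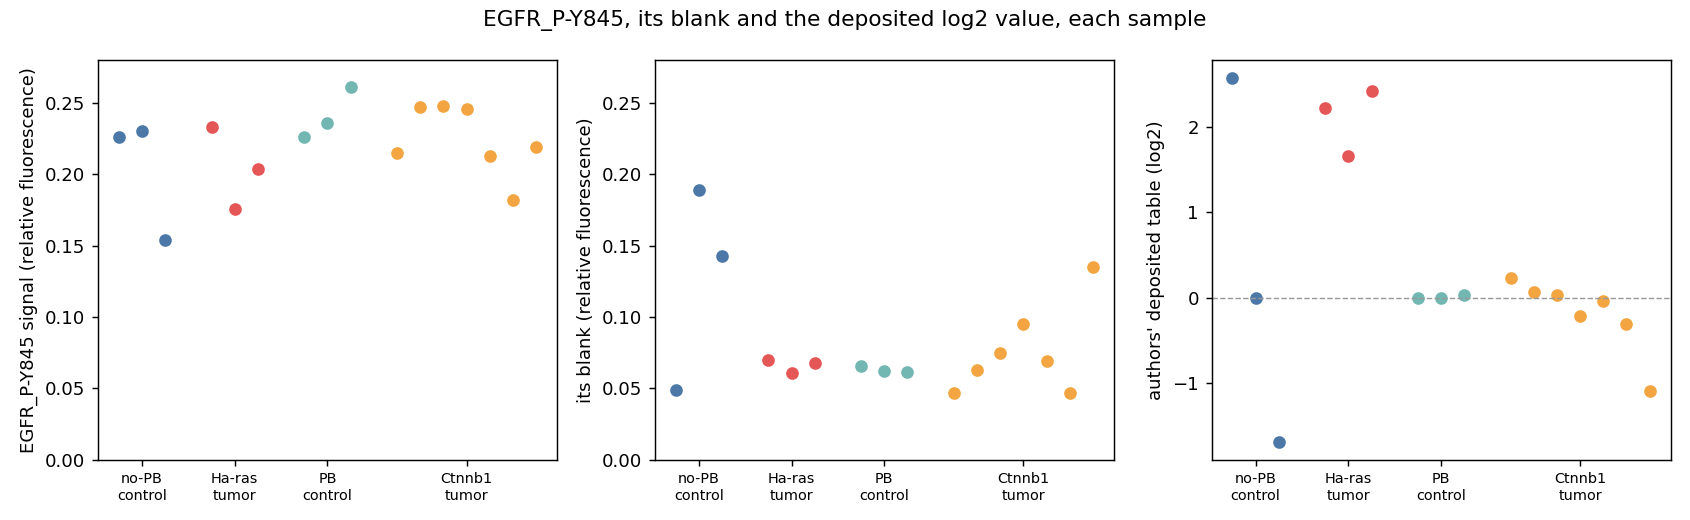
EGFR_P-Y845 in each sample, as fluorescence (left), as the fluorescence of its blank on the same axis (middle), and as the log2 value of the authors' deposited table, centred on each arm's control livers (right). The signal is similar across groups, the blank is high in no-PB controls 2 and 3 and Ctnnb1 tumor 7, and the deposited values of the no-PB controls run from -1.68 to 2.57.

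EGFR_P-Y1045, the CBL docking site, stood least above its blank of the 6, at a median of 1.23 times. It read 0.0978, 0.0931 and 0.119 in Ha-ras tumors 1 to 3, 0.0865, 0.106 and 0.0845 in no-PB controls 1 to 3, and 0.112, 0.125 and 0.129 in PB controls 4 to 6. In the Ctnnb1 tumors the lowest value was 0.0817, the median 0.11 and the highest 0.145. The tumors overlapped the controls in both arms, with differences of 0.11 ± 0.17 (limma adjusted p = 0.755) and -0.28 ± 0.15 (adjusted p = 0.335). In Ctnnb1 tumors the direction turned with the blank, to 0.77 ± 0.31 with the blank subtracted (adjusted p = 0.634), 0.20 ± 0.12 divided by it (adjusted p = 0.454) and 0.97 ± 0.29 on the authors' deposited table (adjusted p = 0.235). The division was not centred, and the median over all antibodies so divided was 0.23.

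Across the 16 samples, log2 Y1045 followed the log2 of its blank with r = 0.90 (rho = 0.89), given as a description since both share the sample's lysate. It never exceeded 1.58 times the blank. The 3 PB controls lay above the 3 no-PB controls after centring, by 0.19 ± 0.17 (limma adjusted p = 0.709). In the comparison of the control livers 26.6% of the 158 antibodies separated the groups, and 1.9% passed. The same blank was 0.32 higher in PB controls, and the ratio to the blank was lower there, at 1.07 to 1.16 against 1.22 to 1.23.

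EGFR_P-Y1068, the GRB2 site, read 0.095, 0.0835 and 0.138 in Ha-ras tumors 1 to 3 and 0.0902, 0.14 and 0.097 in no-PB controls 1 to 3. In Ctnnb1 tumors it ranged from 0.0914 to 0.156 with a median of 0.105, and PB controls 4 to 6 read 0.0942, 0.113 and 0.118. Groups overlapped in every comparison, and 2 Ctnnb1 tumors reached 2 times the blank, number 6 at 2.06 and number 7 at 2.96 times. PB control 5 lay below its blank, at 0.995 times.

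The Y1068 difference was -0.10 ± 0.25 in Ha-ras tumors (limma adjusted p = 0.864) and -0.07 ± 0.21 in Ctnnb1 tumors (adjusted p = 0.883). The 95% intervals ran from 0.649 to 1.35 and from 0.702 to 1.3 times the control signal. Values of the site in the authors' deposited table ran from -4.28 in Ha-ras tumor 1, where the fluorescence was 1.02 times the blank, to 1.81 in Ctnnb1 tumor 7.

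Relative to total EGFR, all 3 sites were higher in Ha-ras tumors than in no-PB controls without overlap, though none passed the test. The array allows 45 such pairs of a site with its total protein, of which 40% separated these groups and 8.89% passed. Y1045 relative to EGFR was -0.49, -0.42 and -0.23 on the log2 scale in Ha-ras tumors 1 to 3 and -1.06, -1.01 and -0.88 in no-PB controls 1 to 3. Its difference of 0.60 ± 0.20 had a limma adjusted p of 0.0527 over the 45 pairs.

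Y845 relative to EGFR was 0.76, 0.49 and 0.55 in the tumors and 0.32, 0.11 and -0.02 in the controls, a difference of 0.46 ± 0.18 (limma adjusted p = 0.0888). For Y1068 the tumors stood at -0.53, -0.58 and -0.01 and the controls at -1.0, -0.61 and -0.68, a difference of 0.39 ± 0.24 (adjusted p = 0.266). With the blank subtracted the Y1068 ratio turned to -0.52 ± 1.04 (adjusted p = 0.756). The 3 ratios share the total EGFR signal, which was itself lower in these tumors. EGFR_P-Y1045 and EGFR_P-Y1068 were dim in all 6 samples compared and total EGFR in all 3 tumors, so these ratios rest on rows close to their blanks. With the blank subtracted, Y845 relative to EGFR passed (2.68 ± 0.75, adjusted p = 0.0251). No-PB controls 2 and 3, which enter that value, are the samples in which the Y845 blank was high.

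In the PB arm none of the 4 pairs separated the groups (4.44% of the 45 pairs did) and none passed (2.22% did). The differences were 0.31 ± 0.20 for Y1068, 0.17 ± 0.15 for Y845 and 0.10 ± 0.17 for Y1045 relative to EGFR, with limma adjusted p from 0.77 to 0.829. Between the control livers, Y1045 relative to EGFR was 0.42 ± 0.20 higher with PB and separated the groups, as 20% of the pairs did (adjusted p = 0.515). No pair of the 45 passed there (0%), and 3 (6.67%) had an unadjusted p under 0.05. In the mean tumor effect over both arms none of the 4 pairs passed (4.44% of the 45 did), with adjusted p from 0.0686 to 0.111.

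**Figure D4:**
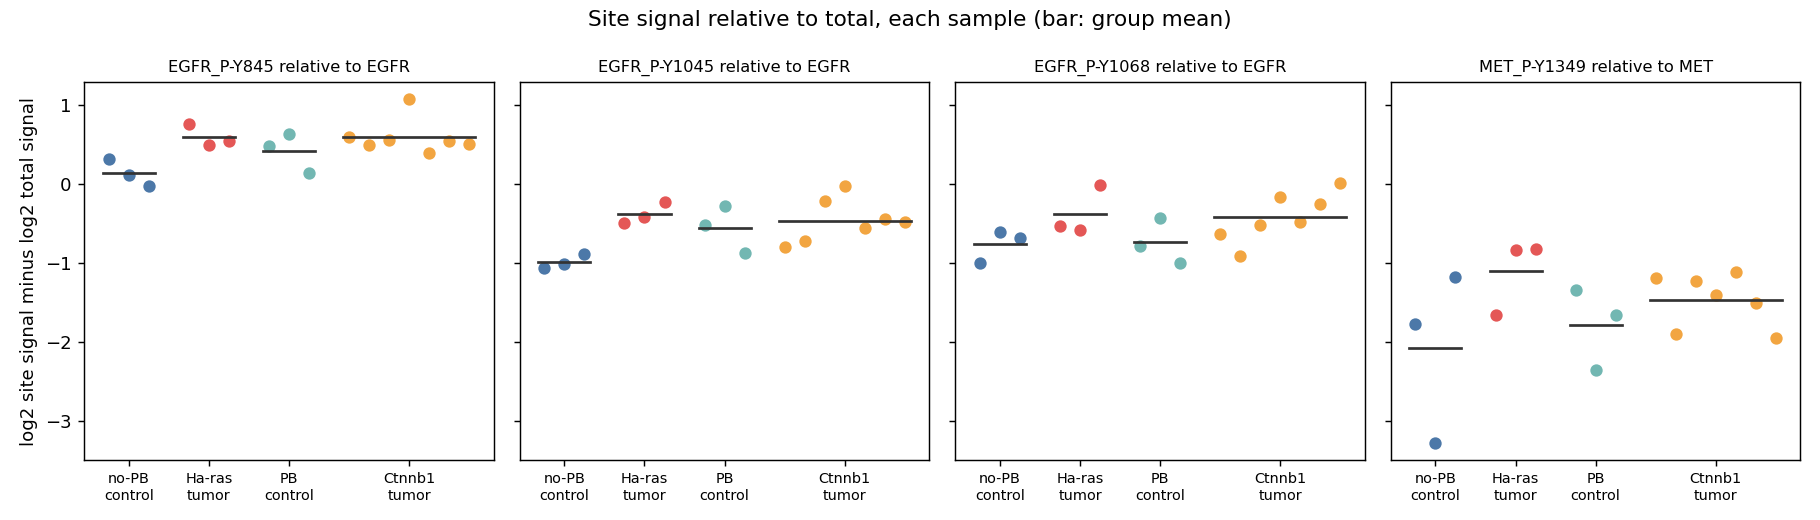
Log2 signal of each site minus log2 signal of its total protein in each sample (points) with the group mean (bar). The 3 EGFR sites are higher relative to EGFR in all 3 Ha-ras tumors than in all 3 no-PB controls, and MET_P-Y1349 relative to MET is lowest in no-PB control 2 (-3.27).

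Total MET had lower group means in tumors of both arms, with a spread in the control livers that exceeded that of nearly all other antibodies. It read 0.451, 0.293 and 0.353 in Ha-ras tumors 1 to 3 and 0.519, 1.85 and 0.367 in no-PB controls 1 to 3. Tumor 1 lay between the controls after centring, and the other 2 lay below all of them. The log2 difference was -1.02 ± 0.40, 2.02-fold lower (n = 3 and 3, limma adjusted p = 0.122, unadjusted p = 0.0223).

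The highest MET value of the series was that of no-PB control 2, at 17.9 times its blank. It stood 1.71 log2 above the next no-PB control, and no other of 155 antibodies with positive values throughout had so large a gap for that sample. The SD of MET over the 3 no-PB controls was 1.12 on the log2 scale, number 2 of 155 antibodies against a median of 0.14. In PB controls it was 0.44, number 6 of 155 against a median of 0.11. Without no-PB control 2 the tumor difference of MET was -0.38 ± 0.25 (adjusted p = 0.581), and without no-PB control 3, the lowest control, it was -1.43 ± 0.39 (adjusted p = 0.029).

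In the PB arm MET read 0.471, 0.85, 0.58, 0.569, 0.404, 0.46 and 0.697 in Ctnnb1 tumors 1 to 7. PB controls 4 to 6 read 0.508, 0.992 and 0.709. In fluorescence 3 of the 7 tumors lay below all 3 controls. After centring 5 did, and tumors 2 and 7 overlapped the controls. The difference was -0.44 ± 0.34, 1.36-fold lower (limma adjusted p = 0.454), and its 95% interval ran from 0.448 to 1.21 times the control signal.

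Over both arms the mean tumor effect on MET was -0.73 ± 0.26 (limma adjusted p = 0.0942, unadjusted p = 0.0137). The exact two-sided permutation within arms, unadjusted and for this antibody alone, gave p = 0.00917. The comparison is the one formed after values had been seen, and these p-values treat the samples as independent. The mean effect on MET was negative in all 26 alternatives and passed in 1 of them, without no-PB control 3 (-0.94, adjusted p = 0.0228). The groups fitted alone are counted among the 26, though for this mean they repeat the main fit. Without no-PB control 2 the mean effect on MET was -0.41 ± 0.16 (adjusted p = 0.152). The MET blank differed by 0.10 and -0.07 in the 2 arms, and divided by the blank the mean effect was -0.74. The group means ran from no-PB controls (0.54 ± 1.12, SD) over PB controls (0.33 ± 0.44) and Ctnnb1 tumors (-0.11 ± 0.23) to Ha-ras tumors (-0.48 ± 0.29), with overlap between all neighbours.

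MET_P-Y1349, the docking site, read 0.143, 0.165 and 0.2 in Ha-ras tumors 1 to 3 and 0.152, 0.191 and 0.162 in no-PB controls 1 to 3, which overlapped. In Ctnnb1 tumors it ranged from 0.162 to 0.25 with a median of 0.206, and PB controls 4 to 6 read 0.201, 0.194 and 0.225, again with overlap. The differences were -0.04 ± 0.15 (limma adjusted p = 0.909) and -0.12 ± 0.12 (adjusted p = 0.554), with 95% intervals of 0.78 to 1.21 and 0.763 to 1.1 times the control signal.

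The site did not follow the total protein across samples (r = 0.03 over 16 samples, -0.12 for deviations from the group means). No-PB control 2, with the highest total MET, read 0.191 for the site. Relative to MET, Y1349 was -1.66, -0.83 and -0.82 in Ha-ras tumors 1 to 3 and -1.77, -3.27 and -1.18 in no-PB controls 1 to 3, a difference of 0.97 ± 0.43 (limma adjusted p = 0.131). Without no-PB control 3 that difference passed (1.42, adjusted p = 0.0418), and without no-PB control 2 it was 0.37 ± 0.35 (adjusted p = 0.564). In the PB arm it was 0.32 ± 0.36 (adjusted p = 0.805).

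Ctnnb1 and Ha-ras tumors did not separate for any of the 6 antibodies (16.5% of the 158 separated) or any of the 4 pairs (17.8% of the 45 did). None of the 6 passed, against 19% of the 158 antibodies, and none of the 6 had an unadjusted p under 0.05, against 29.1%. Total MET was 0.37 ± 0.34 higher in Ctnnb1 tumors (limma adjusted p = 0.545), with 5 of the 7 above all Ha-ras tumors. The other 5 antibodies differed by -0.20 to 0.01. None of the 4 pairs passed, against 22.2% of the 45. In the test of whether the 2 tumor effects differ, none of the 6 antibodies passed (5.06% of the 158 did) and none of the 4 pairs (4.44% of the 45).

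The antibodies most like each receptor antibody over the 16 samples were sought among 114 that were not dim, by Pearson's r of centred log2 signal, as a description of samples that share lysate and array. Total EGFR was most like the tyrosine kinase JAK1 (r = 0.69, and 0.30 for deviations from the group means), followed by AKT1_P-S473 (0.64) and HIST1H3A_A-K18 (0.61). Total MET was most like PRKAA1, the catalytic subunit of AMP-activated kinase (0.71, and 0.68 within groups), the cyclin CCNE2 (0.63) and STAT3_P-Y705 (0.59). EGFR_P-Y845 was most like the ERK kinase MAP2K2 (0.85, and 0.78 within groups).

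EGFR_P-Y1045 went with HIST1H3A_A-K18, acetylated histone H3 (0.89), which was also nearest to MET_P-Y1349 (0.69). EGFR_P-Y1068 went with CDKN1B_P-T187 (0.78), and the Y1045 and Y1068 rows went with each other (0.64). Total EGFR followed its own sites with r of 0.36 for Y1045, 0.45 for Y1068 and 0.50 for Y845.

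Among the proteins that work beside and after these receptors, 10 antibodies to other receptors, tyrosine kinases and adapters held no call against control liver in either arm. Their median log2 difference was -0.08 in Ha-ras tumors and -0.11 in Ctnnb1 tumors, against -0.14 over all antibodies in the latter. Of 10 antibodies to Ras, Raf, MEK and ERK, 2 rose in Ha-ras tumors, the activated forms MAPK3_P-T202/Y204 (log2 2.01 ± 0.24, limma adjusted p = 8.2e-05) and MAP2K1_P-S217/S221 (0.77 ± 0.17, adjusted p = 0.00843). Over all 158 antibodies, 10.1% were called higher and 3.8% lower in Ha-ras tumors, and 0% were called in Ctnnb1 tumors.

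Of 7 antibodies to ERK outputs, 2 rose in Ha-ras tumors and 1 fell, with RPS6KA1_P-T573 at 0.96 ± 0.13 (limma adjusted p = 2.2e-04) and the transcription factor ELK1 at -0.99 ± 0.23 (adjusted p = 0.00965). Of 17 to PI3K and Akt signaling, 5 rose, MTOR_P-S2448 among them (0.84 ± 0.15, adjusted p = 0.0024), and of 6 to STAT proteins, 2 rose, STAT3_P-S727 and STAT3. STAT3_P-S727 and STAT3 did not pass without centring (adjusted p = 0.0514 and 0.0651) or with the replicate block (adjusted p = 0.0581 and 0.0601). Of the 50 antibodies of the 5 lists, 11 rose in all. Divided by the blank in the same sample, 1 of 47 did, MAPK3_P-T202/Y204 (1.87 ± 0.42, adjusted p = 0.0113), while RPS6KA1_P-T573 stood at 0.92 (adjusted p = 0.0566), MTOR_P-S2448 at 0.64 (adjusted p = 0.381) and MAP2K1_P-S217/S221 at 0.57 (adjusted p = 0.381). The fall of ELK1 in Ha-ras tumors did not pass divided by the blank (-0.92, adjusted p = 0.189). Nor did it with Alexa647 scaling (-0.82, adjusted p = 0.0625) or on the authors' deposited table (-0.87, adjusted p = 0.0796). None of the 50 passed in Ctnnb1 tumors against PB controls, where 0% of all 158 antibodies passed.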

How the data were processed

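Lysates of 16 samples were read on a Zeptosens array. The deposited sample files hold a fluorescence intensity per antibody, and whether the authors scaled it is not stated in the labels or file headers. The authors' deposited table holds log2 values, which equal the log2 of the intensity less a blank, scaled per sample and centred on each arm's control livers. Setting it against the intensities gave each receptor antibody's blank (within 0.01 log2 in 15 or 16 of 16 samples). EGFR and EGFR_P-Y1045 share a blank.

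Intensities were log2 transformed and centred on the sample's median, with no blank subtracted, so differences of dim antibodies also carry those of the blank. limma 3.58.1 (R 4.3.3) fitted 4 group means over all 158 antibodies or 45 pairs, with Benjamini-Hochberg adjustment and a threshold of 0.05. The fit was tested on simulated data. A fold at a dim group is a lower bound for the measured group means alone, without sampling error. For it, dim samples were set at the higher of their signal and 2 times the blank. All 6 receptor antibodies are named, beside up to 3 antibodies per pathway list by smallest adjusted p and 3 by likeness. The members, lists and dim limit were chosen with earlier results of these data known. Alternatives changed scaling, blank, dim antibodies, fit, replicate block, array weights and single samples. No protein sequence is printed.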

Additional observations from a re-analysis of the deposited data

Results flagged for a closer look

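EGFR_P-Y845 relative to EGFR was 1.07 on the log2 scale in Ctnnb1 tumor 4, far from the other 6 tumors of the group, whose highest value was 0.60. The gap took 0.69 of the group's range, above Dixon's 95% critical value for 7 samples. In this tumor total EGFR read 0.117, the lowest of the 16 samples and 1.27 times its blank, while EGFR_P-Y845 read 0.246. Of 10 sets of values in the Ctnnb1 group examined this way, 1 stood out, and chance alone gives about 1 in 20.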

How the results depend on the processing

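No receptor antibody and no pair kept a call in every setting. In Ha-ras tumors against controls, 1 of the 6 antibodies passed with quantile normalization and 1 with array weights (EGFR both times), and 0 to 1 when single samples were left out (EGFR without Ctnnb1 tumor 4 or 5 or PB control 5 or 6, MET without no-PB control 3). Of the 4 pairs, 2 passed with quantile normalization, 1 with the blank subtracted, 1 on the authors' deposited table, 1 with the groups fitted alone and 0 to 2 without single samples (Y1045 relative to EGFR without Ctnnb1 tumor 1 or 4 or PB control 6, Y845 relative to EGFR without Ctnnb1 tumor 4, MET_P-Y1349 relative to MET without no-PB control 3). Over all 158 antibodies, 22 passed, against 5 after division by the blank. Division by the blank, here and in the counts below, covers the 145 antibodies with a known blank and was not centred. In Ctnnb1 tumors 1 antibody passed with array weights against 0. Between control livers 3 passed, against 5 without centring, 1 divided by the blank, 8 fitted alone, 0 with the replicate block and 5 with array weights. Between the tumors 30 passed, against 13 divided by the blank. For the difference of tumor effects 8 passed, against 3 with Alexa647 scaling, 4 divided by the blank, 3 on the authors' table, 2 with the replicate block, 17 with array weights and 6 to 15 without single samples (15 without Ctnnb1 tumor 6).

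For the mean tumor effect, 17 antibodies passed against 7 after division by the blank. Of the 6, 1 passed (EGFR) against 0 with Alexa647 scaling, no centring, the blank subtracted, division by the blank, dim antibodies left out or the replicate block, and 1 to 2 without single samples (MET too without no-PB control 3). On the authors' table EGFR also lost its call (-0.48, adjusted p = 0.305), and the 1 that passed was EGFR_P-Y1045. Of the 4 pairs 0 passed, against 2 with quantile normalization, 1 with the blank subtracted, 1 on the authors' table and 1 with array weights. EGFR_P-Y1045 reversed on the authors' table, at 0.77 (adjusted p = 0.0272) against -0.08. Without no-PB control 2, MET turned to 0.43 between control livers and to -0.06 for the difference of tumor effects. The cause of these changes was not tested, except that dim antibodies left out removes EGFR from the fit.

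At 3 times the blank 16, 5 and 13 samples were dim for EGFR, EGFR_P-Y845 and MET_P-Y1349, and at 1.5 times 4 for EGFR. Against the median of all blanks, 15 were dim for EGFR, 6 for EGFR_P-Y845 and 12 for MET_P-Y1349.

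Same-numbered tumors and controls deviated together with r of 0.65, 0.18 and 0.09 in the Ha-ras arm and 0.07, 0.11 and 0.23 in the PB arm, not all above 0.1, so the numbers were not used as pairs. With the replicate block EGFR in Ha-ras tumors was -0.49 (limma adjusted p = 0.109), its mean tumor effect -0.44 (adjusted p = 0.0701), and no other receptor call changed.

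Between groups, the median difference over all antibodies moved by 0.15 to 0.21 with Alexa647 scaling, by up to 0.27 without centring or on the authors' table, and by 0.37 in Ctnnb1 tumors after division by the blank. The share of calls that were higher was 72.7% in Ha-ras tumors, against 20% divided by the blank and 83.3% on the authors' table. Between the tumors it was 30%, against 52.4% with Alexa647 scaling, 67.9% without centring and 76.9% divided by the blank. Signal over blank limits the EGFR rows, and 3 samples in 3 of the groups limit all.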
